A study of Mus musculus with 12 samples.

Results

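The 9 rod phototransduction genes examined here were Gnat1, Gnb1, Gngt1, Pde6a, Pde6b, Pde6g, Cnga1, Cngb1 and Sag. They were chosen by name for their role in the light response of rod photoreceptors, and each matched 1 of the 36131 genes in the expression table. Their RNA was measured by RNA-seq in whole retinas of 12 C57BL/6J wildtype mice at P18, 1 library per mouse. The mice formed 3 groups of 4. RA-PBS mice (animals 1 to 4) were kept in room air and received placebo. O2-PBS mice (animals 5 to 8) were exposed to 75% O2 from P7 and received placebo. O2-IC100 mice (animals 9 to 12) had the same exposure and received IC100, a humanized antibody against the inflammasome adaptor ASC, at 10 µg/g on P12, P14 and P16. The labels put the end of oxygen at P12, whereas the study's methods give P11 as its last day. The labels name intraperitoneal injection for placebo and IC100 alike, and the study elsewhere describes PBS placebo as given into the vitreous, so the placebo route cannot be settled here. Oxygen followed by room air is the oxygen-induced retinopathy (OIR) model, in which retinal capillaries are lost and then regrow abnormally. No mouse kept in room air received IC100.

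Rods are the most numerous photoreceptors of the mouse retina and serve dim-light vision. Light-activated visual pigment switches on transducin, a G protein, which releases the rod phosphodiesterase from its inhibitory subunit. The phosphodiesterase then breaks down cyclic GMP, the cyclic GMP-gated channel of the outer segment closes and the cell hyperpolarizes, and arrestin binding ends the signal at the pigment. Gnat1, Gnb1 and Gngt1 encode the α, β and γ subunits of rod transducin. Pde6a and Pde6b encode the catalytic subunits of the phosphodiesterase, and Pde6g its inhibitory subunit. Cnga1 and Cngb1 encode the channel, and Sag encodes rod arrestin. Gnb1 is also used by many other cell types, and the other 8 genes are characteristic of photoreceptors.

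Sequence upstream of the start site was examined because members shared expression in rods but not, as described below, a single pattern across animals. RefSeq sequences of the GRCm38.p6 build were matched by symbol for Sag, Gnb1, Cnga1, Pde6b, Gngt1 and Cngb1, and the 250 bases before each annotated start were searched on both strands. The letters TAATCC, read as GGATTA on the other strand, are a core recognized by CRX, the photoreceptor homeodomain factor, and occurred in 4 of these 6 windows. The same letters occurred in 6.25% of 32851 promoter windows of that length, which were not matched to the 6 for base composition. The letters TGCTGA, read as TCAGCA on the other strand, form part of sites bound by the rod factor NRL and occurred in Sag and Pde6b and in 16.1% of all windows. Of the windows printed, Sag is shown as the only one of the 6 with both motifs, Cngb1 as the only one with 2 copies of the CRX-type letters, Gngt1 for its single copy, and Gnb1 as the only one with neither. Letters matching a motif are in capitals and each window runs 5′ to 3′ on the strand of its gene.
Sag, chr1:87803430-87803679, plus strand: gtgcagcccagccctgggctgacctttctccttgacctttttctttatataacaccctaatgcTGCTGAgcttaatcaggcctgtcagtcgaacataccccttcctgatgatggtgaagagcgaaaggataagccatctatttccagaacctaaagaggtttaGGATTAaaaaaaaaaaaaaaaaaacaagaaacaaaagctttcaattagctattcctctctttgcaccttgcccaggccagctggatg
Cngb1, chr8:95306586-95306835, minus strand: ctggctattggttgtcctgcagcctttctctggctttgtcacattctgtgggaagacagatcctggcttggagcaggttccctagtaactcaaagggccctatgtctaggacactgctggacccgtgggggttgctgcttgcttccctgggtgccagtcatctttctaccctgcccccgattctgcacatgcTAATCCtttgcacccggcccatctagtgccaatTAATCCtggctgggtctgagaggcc
Gngt1, chr6:3993758-3994007, plus strand: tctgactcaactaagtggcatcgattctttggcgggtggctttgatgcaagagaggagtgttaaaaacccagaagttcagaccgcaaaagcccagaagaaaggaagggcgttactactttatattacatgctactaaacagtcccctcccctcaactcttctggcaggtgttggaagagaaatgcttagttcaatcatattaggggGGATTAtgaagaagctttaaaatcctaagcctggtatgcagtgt
Gnb1, chr4:155491111-155491360, plus strand: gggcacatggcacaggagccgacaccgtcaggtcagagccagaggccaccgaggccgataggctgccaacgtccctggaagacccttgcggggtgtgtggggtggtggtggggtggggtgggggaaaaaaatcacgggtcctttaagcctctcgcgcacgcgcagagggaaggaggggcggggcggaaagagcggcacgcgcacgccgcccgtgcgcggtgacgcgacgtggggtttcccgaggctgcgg
A match of letters is a description of the window and not a measured site. The Gnb1 window was 69.2% G and C, against 42.8% for Sag, 44% for Gngt1 and 55.6% for Cngb1. No start site or binding was measured in these retinas.

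The libraries held 14907143 to 24438082 counts. Members together took 2.13 to 2.64% of the counts in 11 libraries and 0.277% in O2-IC100 animal 10 (95% Wilson interval 0.275 to 0.279%, counting error only). Animal 10 was set apart by lens RNA. The 13 lens markers (crystallins and lens fiber genes) took 38.2% of its counts and at most 0.00422% in the other 3 O2-IC100 libraries. The same markers took 0.00122, 0.819, 3.19 and 0.957% in RA-PBS animals 1 to 4 and at most 0.00886% in O2-PBS. The label retina was checked with 8 rod markers, which include the member Cngb1, so the check is not wholly separate from the members. These markers took 1.01 to 1.26% of counts in the 11 libraries and 0.0689% in animal 10. Of the 8, 0 were at a count of 0 in any library. Y-linked transcripts (Ddx3y, Eif2s3y, Kdm5d and Uty) summed to 239 to 372 CPM without TMM scaling in RA-PBS animals 1 to 3, O2-PBS animal 8 and O2-IC100 animals 9, 11 and 12, and to 1.31 to 11.0 in the other 5, so the sexes were not balanced between groups. Every comparison is therefore given for all 12 animals and for the 11 without animal 10, and the Y-linked split was added to the model as an alternative.

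Levels below are counts scaled to library size with TMM factors (CPM). Divided by transcript length, the levels over 11 animals ran from Gnat1 at 3179 ± 304 CPM per kilobase (mean ± SD, n = 11) through Sag at 2594 ± 331, Pde6g at 1555 ± 201, Gnb1 at 1140 ± 81.5, Pde6b at 642 ± 55.8, Gngt1 at 428 ± 88.9, Pde6a at 362 ± 25.1 and Cnga1 at 283 ± 35.7 to Cngb1 at 121 ± 12.5. The α subunit of transducin and arrestin thus headed the order and the channel subunits closed it. The ranges of Gnat1 and Sag overlapped, and Gnat1 was the higher of the pair in 10 of 11 animals. Gngt1 overlapped Pde6a and was the higher in 8 of 11. Pde6b and Gngt1, and Pde6a and Cnga1, also had overlapping ranges, although within each library the first of each pair was the higher in 11 of 11. Cngb1 RNA includes shorter transcripts that encode the GARP proteins, so its level per kilobase rests on the length taken, 6189 bases. Members other than Pde6a, Pde6g and Gngt1 were also set against a cone counterpart per kilobase. In each of these pairs the rod gene was higher in every one of the 11 animals. The median rod to cone ratio was 50.9 for Gnat1 to Gnat2, 46.9 for Cnga1 to Cnga3, 32.5 for Cngb1 to Cngb3, 19.6 for Sag to Arr3, 12.5 for Pde6b to Pde6c and 6.19 for Gnb1 to Gnb3. Gnb1 and Gnb3 are also used by other cell types, so their ratio does not set rods against cones alone.

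The first comparison, O2-PBS against RA-PBS, asked how the rod transcripts stood at P18, after the return to room air. A gene is called here when it meets the study's thresholds, 1.5-fold or more with p under 0.05 and an adjusted p under 0.1 (edgeR quasi-likelihood test, Benjamini-Hochberg over all tested genes). No member was called. With 11 animals, 0 of 9 members were called against 6.27% of 16688 genes tested. Their log2 fold changes ran from -0.28 for Sag to 0.11 for Cngb1, with a median of -0.04, where the median of all genes was -0.01. The 95% confidence interval lay inside a 1.5-fold change in either direction for 8 of the 9, all but Gngt1. With 12 animals, 0 of 9 were called against 0.807% of 16489 genes, the median was again -0.04, and no interval lay inside 1.5-fold. Animal 10 is in neither of these groups, but each fit estimates 1 spread per gene over all 3 groups. The standard errors of the members were 0.0856 to 0.180 with 11 animals and 0.254 to 0.507 with 12. The fit of 12 thus adds no O2-PBS or RA-PBS animal. With the Y-linked split in the model, the median was -0.08 with 11 animals and 0.12 with 12, on the other side of 0. The model of 12 includes animal 10, the Y-linked low library of O2-IC100 and the lowest in all 9 members. The part of animal 10 in the 0.12 was not tested. At an unadjusted p under 0.05 there was 1 of 9 members (Sag) with 11 animals, where 21.9% of all genes passed, and 0 with 12, where 7.12% did. DESeq2 called 1167 genes with 11 animals and 407 with 12, and limma voom 1011 and 192, none of them members. With 11 animals each of these tools had 2 members at an unadjusted p under 0.05. No member separated O2-PBS from RA-PBS without overlap, as 14.3% of all genes did.

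IC100 was then compared with placebo in mice exposed to oxygen. With 11 animals, 0 of 9 members were called against 0.947% of all genes, and log2 fold changes ran from -0.14 for Cngb1 to 0.36 for Gngt1 with a median of 0.13 (0.00399 for all genes). Of the 9 members, 8 had a 95% interval inside 1.5-fold, all but Gngt1. Sag and Gngt1 did not overlap between the groups, or 2 of 9 members, where 35.3% of all genes did not. With 12 animals, 0 of 9 were called, as were 0% of all genes, and the median was -0.17, on the other side of 0. Sag was the 1 of 9 members with an unadjusted p under 0.05 with 11 animals, where 19.2% of all genes passed, and there was none with 12. With 12 animals and the same thresholds, edgeR called 0 genes, DESeq2 112 and limma voom 2, none of them members. At an unadjusted p under 0.05 alone, edgeR with 12 animals gave 2784 genes, or 16.9% of those tested. With 11 animals DESeq2 and limma voom called 394 and 137 genes, and 0 members. The 3 O2-IC100 libraries left without animal 10 were all Y-linked high, as was 1 of 4 in O2-PBS. A model with the Y-linked split called 0 members and gave a median of 0.19.

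O2-IC100 was last compared with RA-PBS, which shares its samples with both comparisons above. With 11 animals, 0 of 9 members were called against 1.56% of all genes, and all 9 intervals lay inside 1.5-fold, with log2 fold changes from -0.16 for Gnat1 to 0.23 for Cnga1. The median was 0.0062 against 0.0153 for all genes. None of the 9 separated the groups without overlap, as 10.7% of all genes did. With 12 animals, 0 of 9 were called and 0% of all genes, and all 9 members had values below 0, with a median of -0.25. With 12 animals and the same thresholds, edgeR called 0 genes, DESeq2 279 and limma voom 2. With 11 animals DESeq2 and limma voom called 561 and 252, and none of the genes called were members. At an unadjusted p under 0.05 alone, edgeR with 12 animals gave 2183 genes. No member had an unadjusted p under 0.05 in either fit, where 15.55% of all genes passed with 11 animals and 13.2% with 12. The edgeR p-values set each group difference against the spread between these animals, 1 library each. That spread was estimated over all 3 groups together and moderated across genes.

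**Figure D1:**
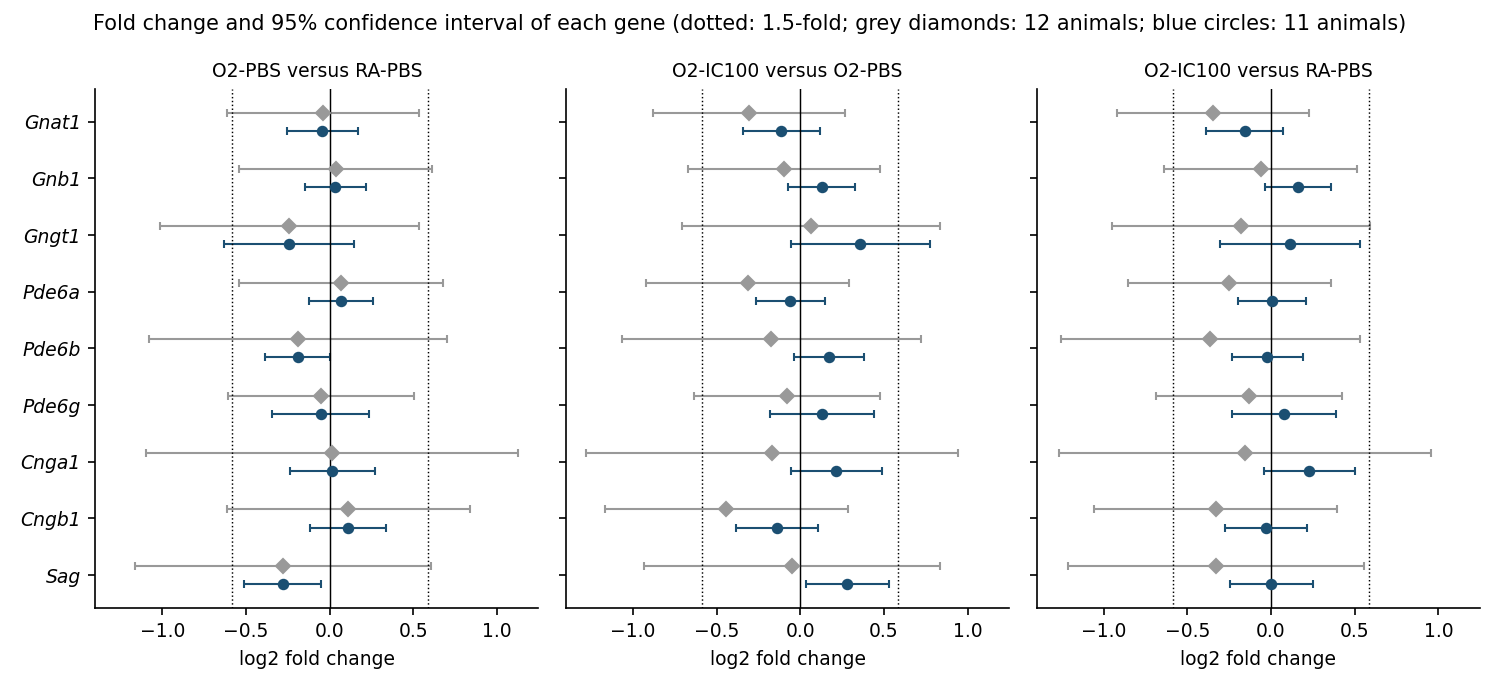
Log2 fold change of each rod phototransduction gene (x axis) with its 95% confidence interval, in 3 comparisons, from the fit of 12 animals (grey diamonds) and of 11 animals (blue circles); dotted lines mark a 1.5-fold change. With 11 animals the intervals of 8, 8 and 9 of the 9 genes lie between the dotted lines, and with 12 animals none do.

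Among the transducin subunits, Gnat1 measured 8844, 7743, 7017 and 7267 CPM in RA-PBS animals 1 to 4, 6858, 8226, 7439 and 7449 in O2-PBS animals 5 to 8, and 6803, 3684, 7496 and 6265 in O2-IC100 animals 9 to 12. The groups overlapped, and animal 10 had the lowest value. In the fit of 11 animals its log2 fold change was -0.04 (SE 0.098) for O2-PBS against RA-PBS, and -0.11 (SE 0.106) and -0.16 (SE 0.106) for O2-IC100 against O2-PBS and RA-PBS. Gnb1 measured 3428, 3279, 3179 and 3771 CPM in RA-PBS, 3152, 3739, 3537 and 3565 in O2-PBS, and 3776, 1737, 3864 and 3701 in O2-IC100. O2-IC100 animals 9 and 11 held the highest values of all 12. Its log2 fold changes were 0.03 (SE 0.0856), 0.13 (SE 0.0923) and 0.16 (SE 0.0923) in the same order of comparisons.

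Gngt1, the γ subunit, measured 684, 413, 393 and 610 CPM in RA-PBS, 334, 529, 467 and 446 in O2-PBS, and 549, 165, 595 and 546 in O2-IC100. The RA-PBS animals formed a high pair (1 and 4) and a low pair (2 and 3) that together spanned the O2-PBS values, apart from the low O2-PBS animal 5. Gngt1 had the widest spread of the 9 members, with an SD of 27.5% of the mean in RA-PBS, against 6.41% for Pde6b at the narrow end. Its log2 fold changes were -0.24 (SE 0.180) for O2-PBS against RA-PBS and 0.36 (SE 0.193, adjusted p = 0.317, edgeR, 11 animals) for O2-IC100 against O2-PBS. The second interval ran from -0.06 to 0.77 and so included 1.5-fold.

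**Figure D2:**
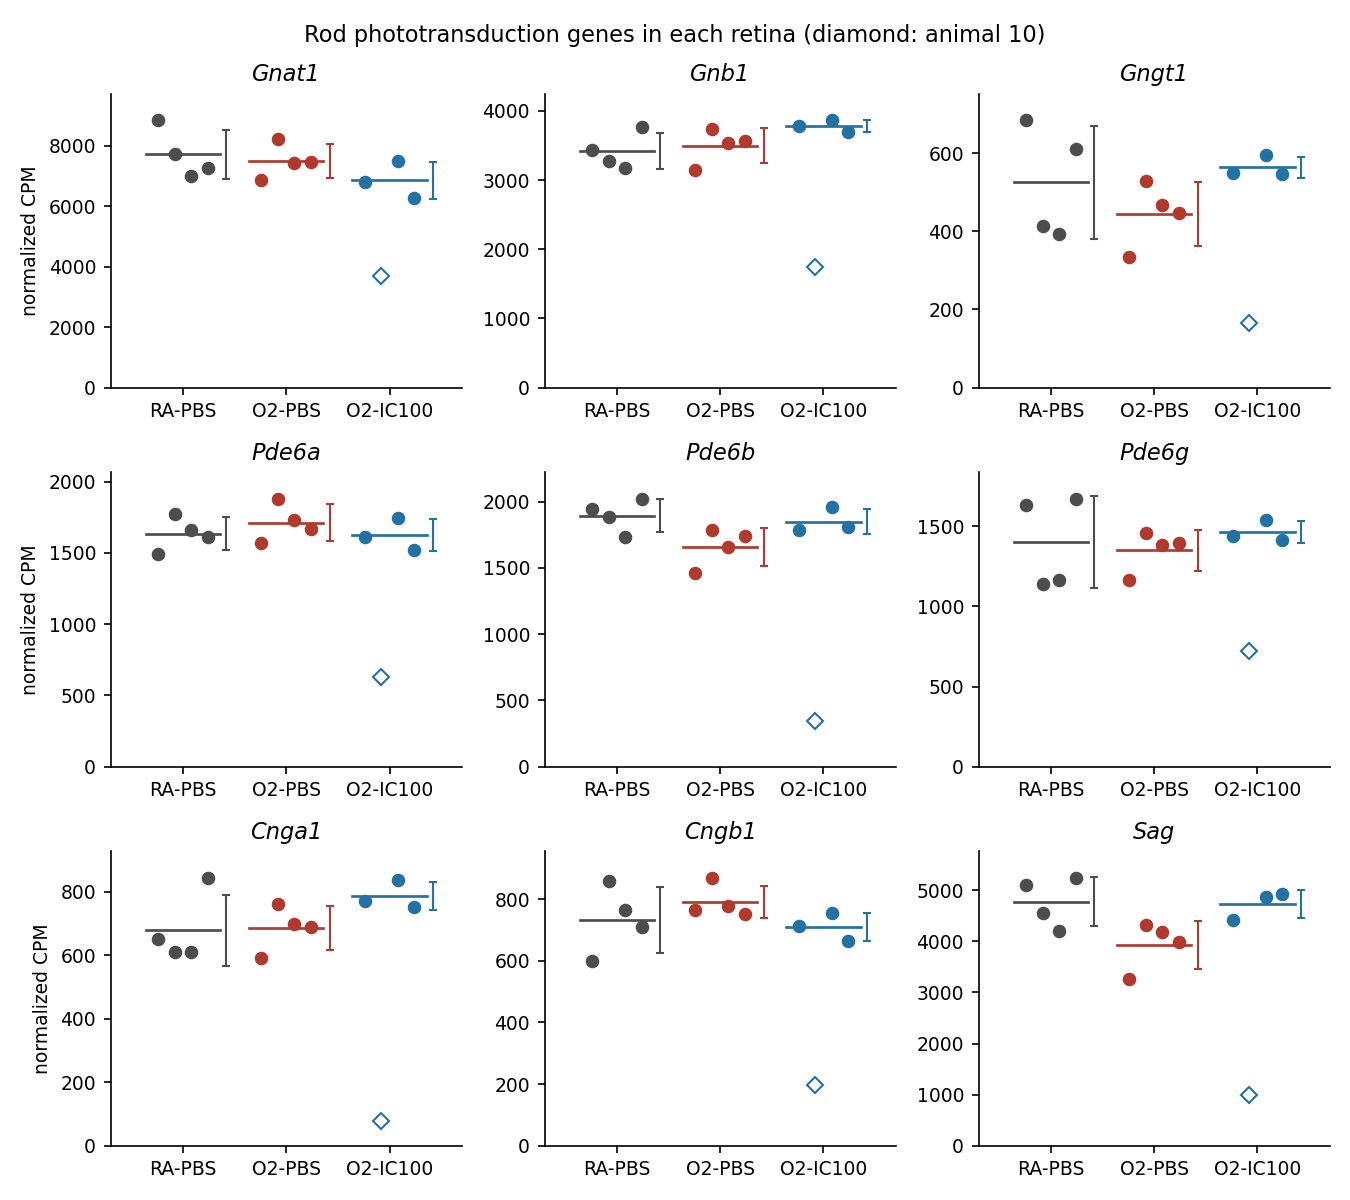
Normalized CPM (y axis, from 0) of the 9 rod phototransduction genes in each of the 12 retinas, in animal order within each group; lines are group means and bars the SD, both without animal 10 (open diamond). The open diamond is the lowest point of its panel for all 9 genes, and the filled points of the 3 groups overlap except O2-PBS and O2-IC100 for Gngt1 and Sag.

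Among the phosphodiesterase genes, Pde6a measured 1490, 1773, 1659 and 1614 CPM in RA-PBS, 1571, 1876, 1732 and 1666 in O2-PBS, and 1611, 626, 1742 and 1520 in O2-IC100. Its group means were 1634 ± 117 in RA-PBS, 1711 ± 128 in O2-PBS (SD, n = 4 each) and 1624 in O2-IC100 without animal 10. Pde6b measured 1943, 1885, 1731 and 2017 CPM in RA-PBS, 1460, 1785, 1657 and 1738 in O2-PBS, and 1784, 345, 1957 and 1804 in O2-IC100. Of the O2-PBS animals, 2 (6 and 8) lay within the RA-PBS range and 2 below it. Pde6b had a log2 fold change of -0.19 for O2-PBS against RA-PBS (95% interval -0.38 to 0.0032, adjusted p = 0.237, edgeR, 11 animals) and of 0.17 (-0.04 to 0.38, adjusted p = 0.341) for O2-IC100 against O2-PBS. Both comparisons share the O2-PBS animals. Pde6g, the inhibitory subunit, measured 1630, 1140, 1165 and 1669 CPM in RA-PBS, 1167, 1460, 1382 and 1395 in O2-PBS, and 1438, 721, 1540 and 1412 in O2-IC100. It had the same high and low RA-PBS pairs as Gngt1, and its log2 fold changes were -0.05 (SE 0.134), 0.13 (SE 0.145) and 0.08 (SE 0.145).

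Of the channel subunits, Cnga1 measured 650, 611, 610 and 843 CPM in RA-PBS, 592, 762, 699 and 690 in O2-PBS, and 771, 78.2, 838 and 753 in O2-IC100. RA-PBS animal 4 held the highest value. Its log2 fold changes were 0.01 (SE 0.118) for O2-PBS against RA-PBS, 0.21 (SE 0.127) for O2-IC100 against O2-PBS and 0.23 (SE 0.127, adjusted p = 0.412, edgeR, 11 animals) for O2-IC100 against RA-PBS. Without RA-PBS animal 4 the last value was 0.35 with an adjusted p of 0.042 (edgeR), still below 1.5-fold. Cngb1 measured 600, 858, 764 and 710 CPM in RA-PBS, 766, 868, 779 and 752 in O2-PBS, and 712, 197, 756 and 665 in O2-IC100. The log2 fold changes of this subunit were 0.11 (SE 0.105), -0.14 (SE 0.114) and -0.03 (SE 0.114).

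Sag, rod arrestin, came closest to a difference. It measured 5105, 4557, 4207 and 5236 CPM in RA-PBS, 3262, 4319, 4176 and 3980 in O2-PBS, and 4414, 1000, 4863 and 4921 in O2-IC100. Of the 4 O2-PBS animals, 3 lay below the whole RA-PBS range and animal 6 lay within it, and animals 9, 11 and 12 all lay above the O2-PBS range. The mean was 4776 ± 480 in RA-PBS and 3934 ± 469 in O2-PBS (SD, n = 4 each). With 11 animals, edgeR gave a log2 fold change of -0.28 (SE 0.107, 95% interval -0.51 to -0.05, adjusted p = 0.134). O2-IC100 without animal 10 averaged 4733. Its edgeR log2 fold change against O2-PBS was 0.28 (SE 0.115, 95% interval 0.03 to 0.53, adjusted p = 0.226). These comparisons share the O2-PBS samples. Against RA-PBS the difference was 0.0004 (95% interval -0.25 to 0.25). With 12 animals the intervals were -1.16 to 0.60 and -0.93 to 0.83 for the first and second comparison. Over the alternatives tried with 11 animals, the adjusted p for O2-PBS against RA-PBS ran from 0.0195 to 0.314 in 22 settings, and in none did the fold change reach 1.5.

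Ratios between partner genes within a library do not depend on how the library is scaled, although they can move with transcript length, described below. Of 6 ratios in 3 comparisons, none of the 18 tests had an adjusted p under 0.1 with 12 or 11 animals (exact two-sided permutation test on log2 ratios, Benjamini-Hochberg over the 18). With 4 animals against 4 the smallest p this test can give is 0.0286, and with 3 against 4 it is 0.0571, so an adjusted p under 0.1 would need many of the 18 tests at these limits. Ratios of other gene pairs were not computed, so no share of them that separates the groups stands beside these. Of single genes, 14.3% did not overlap between O2-PBS and RA-PBS, and 35.3% between O2-PBS and O2-IC100, with 11 animals. The ratio of the catalytic subunits, Pde6a to Pde6b, was 0.767, 0.940, 0.959 and 0.8001 in RA-PBS animals 1 to 4 and 1.08, 1.05, 1.04 and 0.959 in O2-PBS animals 5 to 8. The groups did not overlap, although RA-PBS animal 3 and O2-PBS animal 8 nearly met, and the geometric means were 0.862 and 1.03 (exact permutation p = 0.0286, adjusted p = 0.147 with 11 animals and 0.257 with 12). In O2-IC100 the ratio was 0.903, 0.890 and 0.842 in animals 9, 11 and 12, below every O2-PBS animal (exact permutation p = 0.0571), and 1.81 in animal 10.

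The ratio of Sag to Gnat1 set arrestin against the transducin α subunit in the same library. It was 0.577, 0.588, 0.5996 and 0.721 in RA-PBS, 0.476, 0.525, 0.561 and 0.534 in O2-PBS, and 0.649, 0.649 and 0.786 in O2-IC100 animals 9, 11 and 12. All O2-PBS animals lay below all others but animal 10, which had 0.271. The exact permutation p was 0.0286 for O2-PBS against RA-PBS and 0.0571 for O2-IC100 against O2-PBS, with adjusted p-values of 0.147 without animal 10 and, with it, 0.257 for the first and 1 for the second. The channel ratio, Cnga1 to Cngb1, was 1.08, 1.11 and 1.13 in O2-IC100 animals 9, 11 and 12 and 0.773 to 0.917 in O2-PBS, with RA-PBS spread over both from 0.712 to 1.19. Gnb1 to Gngt1 and Gnat1 to Gngt1 also did not overlap between O2-PBS and O2-IC100 without animal 10 (exact permutation p = 0.0571 each), with geometric means of 7.97 and 6.71 and of 17.1 and 12.1. Pde6g to Pde6b overlapped in every comparison, at 0.799 to 0.834 in O2-PBS and 0.783 to 0.806 in animals 9, 11 and 12.

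**Figure D3:**
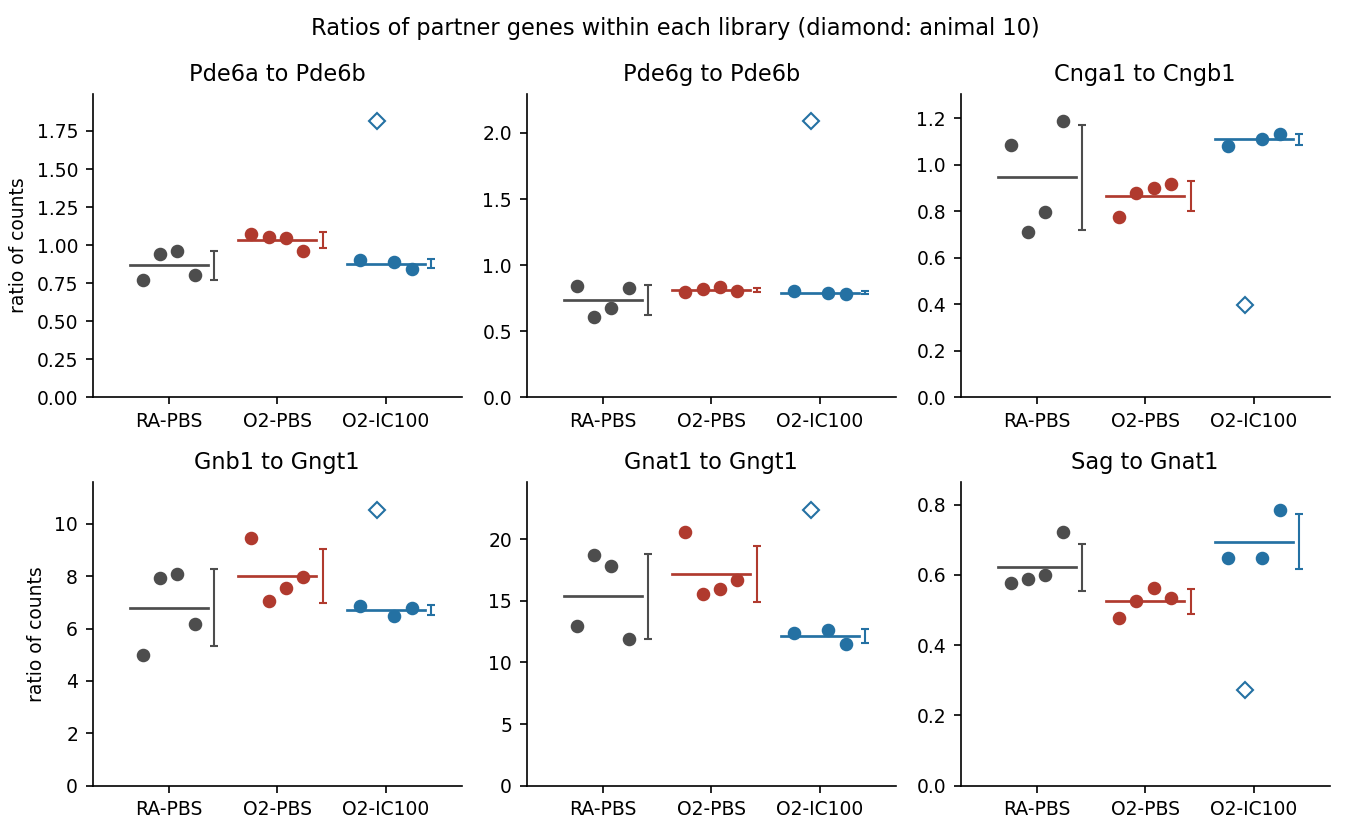
Ratio of counts (y axis, from 0) of 6 pairs of rod phototransduction genes within each of the 12 libraries; lines are group means and bars the SD, both without animal 10 (open diamond). O2-PBS lies above RA-PBS for Pde6a to Pde6b and below it for Sag to Gnat1 without overlap, and animal 10 lies outside the range of all other libraries in all 6 panels.

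The members did not vary as 1 block from animal to animal. Over the 36 pairs and 11 animals, Pearson's r of log2 CPM ran from -0.57 to 0.97 with a median of 0.34, 11 pairs had r below 0 and 5 had r above 0.8. The closest pairs were Gnb1 with Cnga1 (r = 0.97), Pde6b with Sag (0.94), Gngt1 with Pde6g (0.92) and Pde6a with Cngb1 (0.90), and the most opposed was Gngt1 with Cngb1 (-0.57). Transcript length moved with this split. In each library the median log2 deviation of 556 genes shorter than 1000 bases was set against that of 3716 genes longer than 4000 bases. The difference was 0.24, -0.47, -0.23 and 0.46 in RA-PBS animals 1 to 4, -0.37, -0.14, 0.0034 and -0.02 in O2-PBS animals 5 to 8, and 0.20, 0.22 and 0.16 in O2-IC100 animals 9, 11 and 12, with 1.53 in animal 10. Short genes were thus relatively high in RA-PBS animals 1 and 4 and in the O2-IC100 animals, and low in RA-PBS animals 2 and 3 and O2-PBS animal 5.

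Over the 11 animals the shortest members went up with that gradient, Pde6g (900 bases, r = 0.92) and Gngt1 (1183 bases, r = 0.86), and the longest went down with it, Pde6a (4588 bases, r = -0.39) and Cngb1 (6189 bases, r = -0.67). Gnat1 (2328 bases) had r = -0.0024, and the other 4 members had r from 0.60 for Pde6b to 0.79 for Cnga1. The gradient itself did not overlap between O2-PBS and O2-IC100 animals 9, 11 and 12, the groups that 5 of the 6 ratios above also separated. Of all genes tested, 35.3% separated these groups too, and ratios of other gene pairs were not computed. The genes of those ratios differ in length, for example Cnga1 (2510 bases) and Cngb1, or Gnat1 and Gnb1 (3110 bases) and Gngt1, and the part of the gradient in the ratios was not tested. These correlations are descriptions over animals that share libraries with the gradient. An offset for transcript length, fitted per library, left 0 of 9 members called in each comparison. For O2-IC100 against O2-PBS it moved the log2 fold change of Gngt1 from 0.36 to 0.26, that of Pde6g from 0.13 to 0.03 and that of Sag from 0.28 to 0.21. For O2-PBS against RA-PBS, Sag stayed at -0.28, with an adjusted p of 0.0691 (edgeR with the offset).

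**Figure D4:**
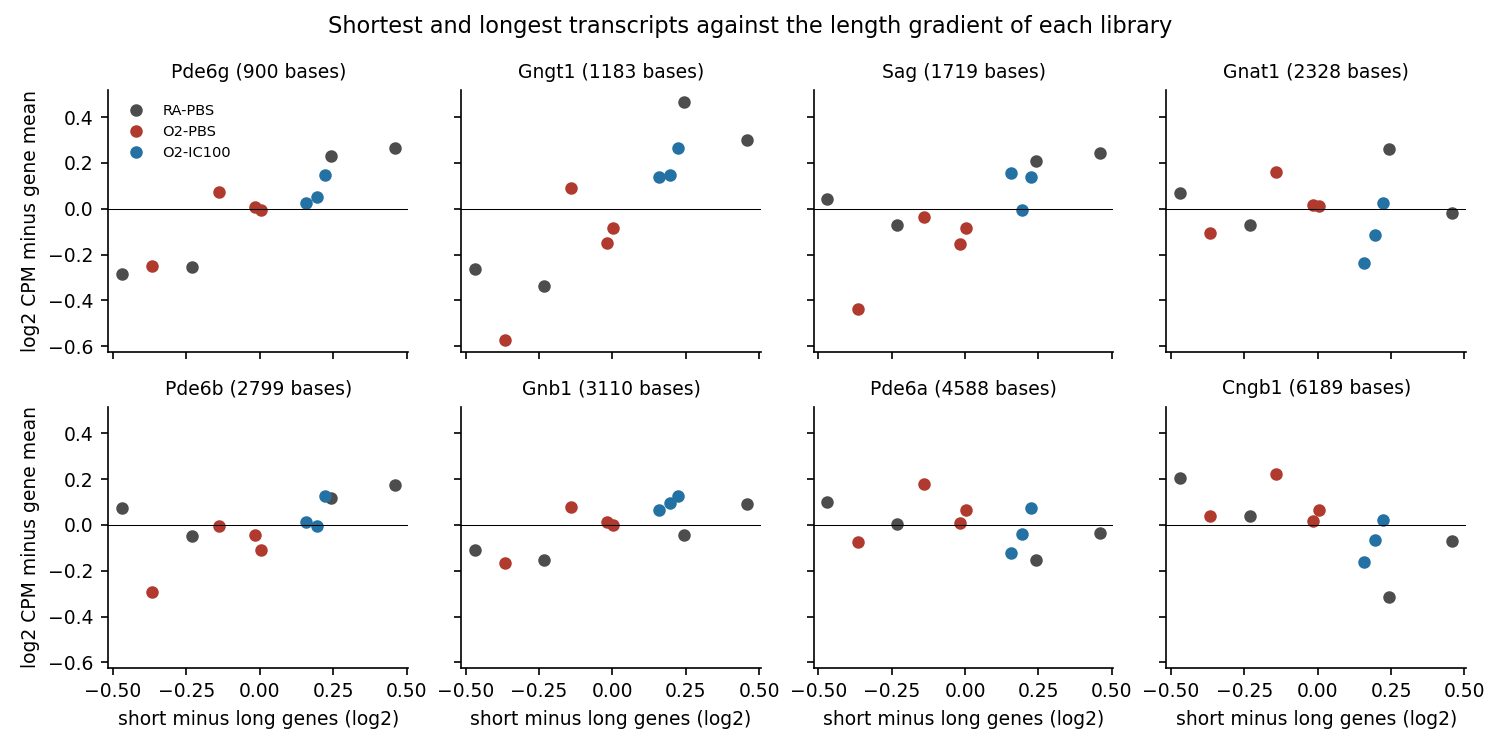
Log2 CPM of 8 rod phototransduction genes minus the gene's mean (y axis) against the median log2 difference between short and long genes of the same library (x axis), for 11 animals coloured by group; Cnga1, of middle length, is not drawn. Pde6g and Gngt1 rise from left to right and Cngb1 falls.

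Animal 10 was low in every member, but not to the same degree. Its CPM as a percentage of the mean of animals 9, 11 and 12 was 53.8% for Gnat1, 49.3% for Pde6g, 46.0% for Gnb1, 38.6% for Pde6a, 29.2% for Gngt1, 27.6% for Cngb1, 21.1% for Sag, 18.7% for Pde6b and 9.93% for Cnga1. As raw shares of the library, without TMM scaling, the same comparison gave 15.4% for Gnat1 and 2.84% for Cnga1. The order of the members is the same on either scale. The 8 rod markers, which include the member Cngb1, stood at a median of 22.6% of the other O2-IC100 animals, and the 8 cone markers at 11.9%. Of the 6 Müller glia markers, the median stood at 152% by CPM, but these markers were split. Aqp4 was at 14.8 CPM in animal 10 against 83.2 to 95.7 in animals 9, 11 and 12, and Rlbp1 at 897 against 365 to 388. As a raw share, the 6 markers took 0.239% of the counts of animal 10, below the 0.381 to 0.407% of those animals. The 9 pigment epithelium markers took 0.283% of the counts of animal 10 against 0.00633 to 0.0307% in the other 11 libraries. In bulk tissue, fewer rods and less RNA per rod cannot be told apart, and the part of lens RNA or of the length gradient in this order was not tested.

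**Figure D5:**
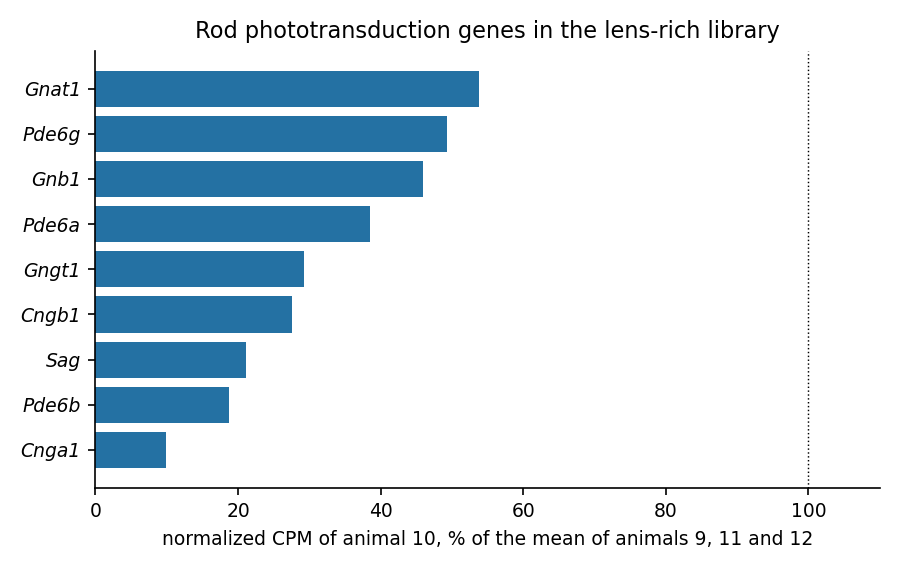
Normalized CPM of O2-IC100 animal 10 as a percentage of the mean of O2-IC100 animals 9, 11 and 12 (x axis, from 0; dotted line at 100%) for the 9 rod phototransduction genes. The bars run from 9.93% for Cnga1 to 53.8% for Gnat1.

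The genes around the cascade were examined in the same fits. Of 13 other genes of the rod cascade (pigment phosphorylation and transducin shutoff, guanylate cyclases and calcium feedback), 1 was called for O2-PBS against RA-PBS with 11 animals, near the 6.27% of all genes called in that fit. In the same comparison 14.3% of all genes did not overlap between the groups. Guca1a, the calcium sensor that regulates the photoreceptor guanylate cyclases, measured 422, 326, 253 and 416 CPM in RA-PBS, 165, 210, 179 and 201 in O2-PBS, and 257, 47.5, 280 and 220 in O2-IC100. Every O2-PBS animal lay below every RA-PBS animal, and Guca1a fell by 0.91 on the log2 scale (SE 0.153, adjusted p = 0.0031, edgeR, 11 animals) and was called in all 22 alternatives to that fit. With 12 animals the value was again -0.91, with an SE of 0.413 and an adjusted p of 0.697 (edgeR). The O2-PBS and RA-PBS animals are the same in both fits, and the spread is shared with O2-IC100. For O2-IC100 against O2-PBS it was 0.43 (95% interval 0.08 to 0.78, adjusted p = 0.203). The median of the 13 genes was 0.09 for O2-PBS against RA-PBS.

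Of the 8 cone counterparts of the members, 1 was called in the same comparison, again against 6.27% of all genes. Gnb3, the transducin β subunit of cones that ON bipolar cells also use, measured 323, 271, 286 and 271 CPM in RA-PBS, 431, 457, 473 and 410 in O2-PBS, and 354, 98.2, 370 and 379 in O2-IC100. Its values did not overlap between RA-PBS and O2-PBS, as for 14.3% of all genes, and it rose by 0.62 on the log2 scale (SE 0.0867, adjusted p = 0.00085, edgeR, 11 animals), while the rod subunit Gnb1 stood at 0.03. Arr3, cone arrestin and the counterpart of Sag, was at -0.39 with an adjusted p of 0.0435 (edgeR) and so passed the p-value thresholds but not 1.5-fold. Pde6c, the cone catalytic subunit, stood at 0.28 (adjusted p = 0.096, edgeR) and did not reach 1.5-fold either. The median of the 8 was -0.02. Of the 8 bipolar markers, 1 was called lower and none higher. All 8 had log2 fold changes below 0, from -0.77 to -0.09 with a median of -0.30. Their summed share of counts overlapped between the groups, at 0.131 to 0.179% in RA-PBS and 0.131 to 0.155% in O2-PBS, with 0 of 8 at a count of 0. The 8 cone markers took 0.104 to 0.126% in RA-PBS and 0.110 to 0.134% in O2-PBS, with 0 of 8 called. The part of cell composition in the value of Gnb3 was not tested.

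Of 11 outer segment structure genes, 1 was called higher in O2-PBS than in RA-PBS, against 6.27% of all genes called in either direction. Impg2, a proteoglycan of the matrix around photoreceptors, measured 275, 392, 424 and 429 CPM in RA-PBS and 610, 595, 584 and 543 in O2-PBS, a log2 fold change of 0.62 (SE 0.122, adjusted p = 0.0077, edgeR, 11 animals). The groups did not overlap, as for 14.3% of all genes, and RA-PBS animal 1 was the lowest. Without that animal the value was 0.49, with the transcript length offset 0.56 and with the Y-linked split 0.53, each short of 1.5-fold. The median of the 11 genes was 0.08. Of 8 photoreceptor transcription factor genes, 0 were called. Those with the largest values were Samd7, a corepressor gene of rods, at 0.46 (adjusted p = 0.0886, edgeR) and Neurod1 at 0.20. Samd7 measured 143 to 172 CPM in RA-PBS and 300, 219, 160.5 and 180 in O2-PBS animals 5 to 8, so the groups overlapped and animal 5 stood highest. None of the other rod cascade genes, cone counterparts, outer segment genes or transcription factor genes was called in either comparison of O2-IC100 with 11 animals or in any comparison with 12.

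The 10 genes most like the members' mean log2 CPM over the 11 animals, among 10483 genes with a mean of at least 10 CPM, had Pearson's r from 0.89 to 0.94. They were Mrpl39 (0.94), Pde6d (0.93), Nxnl1 (0.92), Lbhd1 (0.90), Pdc (0.90), Tpd52l2 (0.90), Alg11 (0.90), Nfu1 (0.90), Eif3j1 (0.89) and Myg1 (0.89). Pdc encodes phosducin, which binds transducin βγ subunits in photoreceptors, Pde6d a carrier of lipid-modified proteins that binds the phosphodiesterase, and Nxnl1 a thioredoxin-like factor of rods. These genes were taken as the highest of 10483 values over 11 animals, so a high r follows from the selection. The points share libraries and their length gradient, and no test was made. The mean log2 CPM of the members ran from 10.5 in O2-PBS animal 5 to 10.9 in RA-PBS animal 4 and O2-IC100 animal 11, with all 3 groups overlapping.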

How the data were processed

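RNA of P18 retinas from 12 mice was measured by poly(A) RNA-seq with 150 bp paired-end reads. According to the study's methods, the authors aligned reads with Kallisto to the GRCm39 transcriptome (release 104) and brought estimates to gene level with tximport. The deposited values are expected counts, unscaled, and 42.2% of its values are not whole. Of 36131 identifiers, 35374 had a symbol. Counts were rounded and fitted with edgeR 4.0.16 in R 4.3.3 (TMM, filterByExpr, robust quasi-likelihood, 3 groups, no covariate). Of the genes, 16489 were tested with 12 animals and 16688 with 11, all 9 members included. Log2 fold changes are moderated estimates with 95% intervals. Depth was 14907143 to 24438082 counts per library, and 3 counts equal 1.23e-05 to 2.01e-05% of a library. Ratios were tested with scipy 1.17.1. The members, gene lists and tests were chosen with earlier results of these data known. Genes outside the members were named if called in either fit, or otherwise as the 2 of a list with the largest fold change for O2-PBS against RA-PBS, plus the 10 most like the members. Of the genes so named in lists of other cell types, only those a result turns on are printed. Lengths are medians of principal transcripts in GENCODE vM21 on GRCm38, another build than the counts, so the only positions given are those of the promoter windows, from RefSeq on GRCm38.p6. Alternatives were DESeq2 1.42.0, limma 3.58.1 voom, other normalizations, filters and thresholds, and each animal left out. A length offset and a Y-linked covariate were added after seeing the data. The fits were tested on simulated data, in which all libraries shared a mean profile and a fixed spread, apart from changes put in on purpose. No simulated library was rich in lens RNA, so this does not show how the fits behave with animal 10.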

Additional observations from a re-analysis of the deposited data

Results flagged for a closer look

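In 45 sets of 4 animals (9 genes and 6 ratios in 3 groups), the lowest or highest animal was compared with the others by Dixon's ratio of gap to range. Chance passes a single set in about 1 of 20 cases. The sets share libraries and the ratios reuse the 9 genes, so the number of sets passed cannot be set against that share. The ratio passed the 95% limit in 13 sets, and in all 13 the animal was O2-IC100 animal 10. Its CPM was far below the other O2-IC100 animals for Gnb1 (1737), Gngt1 (165), Pde6a (626.5), Pde6b (345), Pde6g (721.5), Cnga1 (78.2), Cngb1 (197) and Sag (999.6). Gnat1 in this animal, at 3684, did not pass. Its ratio was far from the others for Pde6a to Pde6b (1.81), Pde6g to Pde6b (2.09), Cnga1 to Cngb1 (0.398), Gnb1 to Gngt1 (10.55) and Gnat1 to Gngt1 (22.4). The same library held 38.2% lens marker counts.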

How the results depend on the processing

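The count of members called was 0 in all 3 comparisons, with 12 and with 11 animals, under every alternative run: DESeq2, limma voom, RLE and upper quartile factors, lens genes taken out, scaling to other rod genes, no filter, stricter or no fold thresholds, only the groups compared, libraries over 1% lens share left out, each animal left out, a length offset and a Y-linked covariate. With 11 animals, an adjusted p under 0.1 without 1.5-fold was reached for O2-PBS against RA-PBS by Sag (DESeq2 0.0624, scaling to other rod genes 0.0195, length offset 0.0691, without RA-PBS animal 3 0.0624) and Pde6b (scaling to other rod genes 0.0404). Sag also had 0.0624 (edgeR) with libraries over 1% lens share left out. Fitting only the groups compared, O2-IC100 against O2-PBS gave 0.0451 for Sag and 0.0759 for Cnga1. For O2-IC100 against RA-PBS, Cnga1 had 0.042 (edgeR) without RA-PBS animal 4. Gnb3 and Impg2 fell just below 1.5-fold on the scale of other rod genes (log2 0.52 and 0.53). That scale rests on 12 rod genes that are not members. Impg2 is among the 12, so its own value there is not a separate check. For O2-PBS against RA-PBS with 11 animals, 9 of the 12 had log2 fold changes above 0, with a median of 0.04. On that scale Sag stood at -0.37 and Pde6b at -0.28, and the part of the scaling genes in their adjusted p-values was not tested. Leaving out animal 10 turned the median of the members for O2-IC100 against O2-PBS from -0.17 to 0.13, since that library alone is low in all 9. With 12 animals, the Y-linked covariate turned that of O2-PBS against RA-PBS from -0.04 to 0.12. That model includes animal 10, which is Y-linked low, and the part of this library in the change was not tested. The number of ratios with an adjusted p under 0.1 was 0 with 12 and with 11 animals, and with each animal left out, but so few animals could pass only if many of the 18 tests were at the smallest possible p, so this says nothing about stability. No paired analysis was possible because no replicate number occurs in more than 1 group. Depth did not limit the members, all of which passed the filter in both sets, and standard errors were 0.09 to 0.19 with 11 animals and 0.25 to 0.51 with 12.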
